A study of Mus musculus with 8 samples.

Results

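The large cadherins Fat4 and Dchs1 and the Hippo pathway that is often studied with them are represented by 10 genes in the deposited table: Fat1, Fat3, Fat4, Dchs1, Fjx1, Yap1, Wwtr1, Lats1, Lats2 and Tead2. They were chosen by symbol, all 10 were found among the 23337 genes listed, and all 10 had a mean normalised read count of at least 10, which was the condition for testing. RNA came from whole E13.5 kidneys of mouse embryos of a mixed C57BL/6 background. The 4 control libraries had the genotype Smo(flox/+), in which 1 Smo copy is floxed and the other wild type. The 4 mutant libraries had the genotype Foxd1Cre;Smo(flox/-), with the Cre driver, a floxed copy and a null copy. Foxd1Cre expresses Cre recombinase in renal stromal progenitors, so Smo, the gene of the hedgehog transducer Smoothened, is deleted in stromal cells, while every mutant cell also lacks 1 copy of Smo and carries Cre. The comparison therefore belongs to the whole genotype. The samples are numbered 1 to 4, with no embryo or litter named, and p-values cover just the spread among these libraries. Part of that spread may be technical. The Y-linked gene Ddx3y, given below, differed within each group, so the libraries of a group did not all come from the same embryo.

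Fat4 and Dchs1 are giant protocadherins that bind each other across cell contacts. In the developing kidney Fat4 is best known from the stroma, where it signals to nephron progenitors that carry Dchs1, and loss of either leaves too many progenitors undifferentiated. The Hippo pathway is a kinase cascade: MST kinases activate the LATS kinases, which phosphorylate the coactivators YAP and TAZ and keep them out of the nucleus, and unphosphorylated YAP and TAZ bind TEAD factors on DNA and switch on growth and adhesion genes. Fjx1 encodes the mouse relative of Four-jointed, a Golgi kinase that in flies modifies Fat and Dachsous.

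Promoter sequences are shown for the coactivator genes Yap1 and Wwtr1, for Amotl2, a widely used YAP target gene that binds YAP, and for Fat4, because TEAD factors recognise a short core, GGAATG, and it can be seen where that core lies. Each run is the 250 bases before the RefSeq start in GRCm38.p6, read 5′ to 3′ on the gene's strand, with the core or its reverse complement CATTCC in capitals.

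Fat4: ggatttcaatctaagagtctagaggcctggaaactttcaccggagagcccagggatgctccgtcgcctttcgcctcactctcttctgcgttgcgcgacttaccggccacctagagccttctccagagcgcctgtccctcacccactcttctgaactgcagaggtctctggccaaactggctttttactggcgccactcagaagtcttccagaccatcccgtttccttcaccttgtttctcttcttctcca

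Yap1: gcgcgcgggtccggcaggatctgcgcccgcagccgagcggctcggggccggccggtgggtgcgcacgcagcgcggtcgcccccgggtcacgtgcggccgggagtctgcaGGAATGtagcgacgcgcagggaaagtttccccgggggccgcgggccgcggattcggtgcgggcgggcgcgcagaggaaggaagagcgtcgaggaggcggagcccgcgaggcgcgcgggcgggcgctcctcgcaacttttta

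Wwtr1: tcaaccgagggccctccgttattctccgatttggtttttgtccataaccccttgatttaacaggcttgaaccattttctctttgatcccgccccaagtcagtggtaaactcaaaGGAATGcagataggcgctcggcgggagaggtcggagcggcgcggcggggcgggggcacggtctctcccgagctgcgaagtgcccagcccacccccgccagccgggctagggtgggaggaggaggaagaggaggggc

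Amotl2: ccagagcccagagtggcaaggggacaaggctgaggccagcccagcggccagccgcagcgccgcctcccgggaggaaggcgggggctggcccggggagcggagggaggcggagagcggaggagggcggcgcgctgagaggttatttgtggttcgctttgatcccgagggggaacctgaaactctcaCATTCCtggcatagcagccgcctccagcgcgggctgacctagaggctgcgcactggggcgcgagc

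These windows are chr3:38886690-38886939 on the plus strand for Fat4, chr9:8004597-8004846 on the minus strand for Yap1, chr3:57575911-57576160 on the minus strand for Wwtr1 and chr9:102717554-102717803 on the plus strand for Amotl2. Counted to the first base of the core, the match lies 141 bases before the start of Yap1, 136 before that of Wwtr1 and 65 before that of Amotl2, where it is on the opposite strand. The window of Fat4 holds none. Of the 10 members, 8 had a promoter entry, and 3 of these 8 (Fat1, Yap1 and Wwtr1) held the core. The entry of Fat1 lies inside the gene as GENCODE annotates it, so it is not shown. Of 13 other genes with an entry, named below by rule from the related lists, 5 held the core. A gene was counted if any of its entries held it. Further genes named below, such as Ctgf and Cyr61, were not searched. Among all 32851 promoter entries, 12.6% held the core in the same 250 bases on either strand, which is a share of entries and not of genes. The hedgehog effector motif GACCACCCA, searched on both strands as well, neither contains the core nor is contained in it. It was in 0.225% of all entries and in 0 entries of the members and these 13 other genes. These matches describe letters and not binding.

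Libraries held 10288191 to 13494079 reads in genes. Smo had 2241 ± 66.4 normalised counts in controls and 537 ± 20.0 in mutants (SD, n = 4 each), in keeping with the labels. Of 10 markers of the cortical stroma, the layer that expresses Foxd1, 9 had negative fold changes. Their summed normalised count was 34206 to 39499 in controls and 27379 to 32904 in mutants. By limma at an adjusted p under 0.05, 2 were called lower and 0 higher, against 0.446% and 0.124% of all tested genes. Foxd1 was 1 of these 2 (log2 fold change -1.29, limma adjusted p = 0.0251). Just the mutants carry Foxd1Cre, and an effect of that driver on Foxd1 itself was not tested. Nephron progenitor markers summed to 9399.7 to 10698 in controls and 11404 to 11828 in mutants. Of these 9 markers 1 was called higher by limma, against 0.124% of all tested genes. In RNA from whole kidneys, fewer cells of a type and less RNA per cell cannot be told apart. Skeletal muscle markers summed to 3457 in control 2 and 1937 in mutant 2 and to 134 to 623 elsewhere, and counts were repeated without these libraries. Liver markers summed to 724 in control 1 and to no more than 142 elsewhere. The Y-linked gene Ddx3y reached 1518 in control 4 and 1389.7 in mutant 2, against 1.7 or less in the other libraries.

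With genotype as the only term, none of the 10 genes passed the threshold between controls and mutants. By limma with Benjamini-Hochberg adjustment over all 13692 tested genes, 0 of 10 were called at an adjusted p under 0.05, where 0.57% of all tested genes were called. On recovered reads edgeR called 0 of 10 (0.577% of all genes) and DESeq2 0 of 10 (1.56% of all genes). An unadjusted p under 0.05 was reached by 2 members, Wwtr1 and Lats2, against 8.7% of all tested genes. Groups overlapped for all 10, whereas 5.31% of tested genes separated the genotypes without overlap. Log2 fold changes of mutants against controls, computed on log2(normalised count + 1), ran from -0.23 for Fat4 to 0.11 for Fat1, with a median of -0.035 beside 0.0037 over all tested genes.

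**Figure D1:**
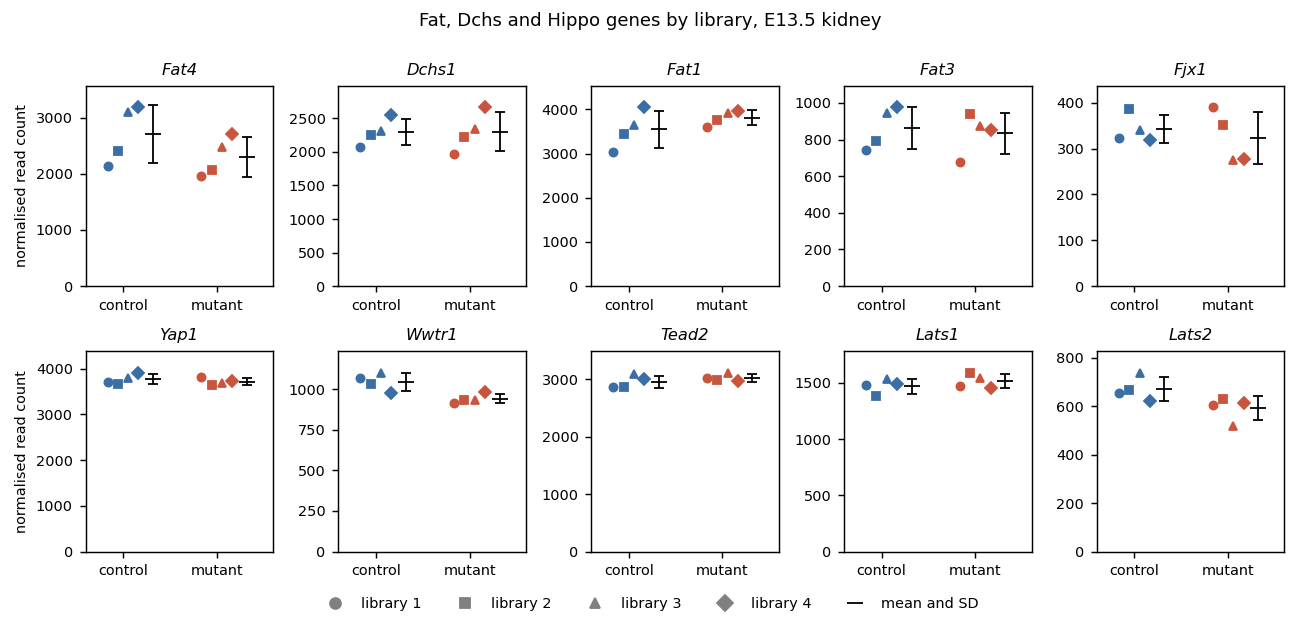
Normalised read counts (y axis, from 0) of the 10 genes in each control and mutant library (x axis), with 1 symbol per library and the mean and SD of each group in black. The groups overlap in every panel, and the 4 libraries of Fat4 spread from 1952 to 2706 in mutants and from 2146 to 3184 in controls.

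Among the cadherins, Fat4 had the largest difference of the 10 and also the largest standard error. It lies on chromosome 3 from 38886940 to 39011985 of GRCm38, on the plus strand. Its normalised count was 2146, 2411, 3105 and 3184 in controls 1 to 4 and 1952, 2064, 2482 and 2706 in mutants 1 to 4. Controls 3 and 4 stood above all mutants, and controls 1 and 2 lay inside the mutant range. The means were 2712 ± 513 and 2301 ± 354 (SD, n = 4 each), which put the mutants at 84.9% of the control level. The log2 fold change was -0.23 (SE 0.133, 95% interval -0.52 to 0.062, limma adjusted p = 0.717). The value also moved with the libraries used: without controls 1 and 2 it was -0.46 (adjusted p = 0.179), and without control 4 and mutant 2, the libraries with Y-linked transcripts, it was -0.098 (adjusted p = 0.836). Both settings were chosen after seeing the data. Controls 1 and 2 were the lowest controls for Fat4, so leaving them out had to widen the difference. In an alternative fit with the sample number as a block, Fat4 was called (limma adjusted p = 0.0133), as were 1.69% of all tested genes. The numbers are not stated to mark litters or pairs. For each number, Fat4 was lower in the mutant than in the control. Deviations of controls and mutants of the same number from their group means correlated at 0.325, 0.287, 0.294 and 0.0635 for numbers 1 to 4.

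Dchs1, whose product is the binding partner of Fat4, had nearly equal means in the genotypes. It lies on chromosome 7 from 105752990 to 105787654, on the minus strand. Controls held 2081, 2255, 2314 and 2546 and mutants 1966, 2229, 2341 and 2667. The mutant range enclosed the control range at both ends. Means were 2299 ± 192 and 2301 ± 290.2 (n = 4 each), with a log2 fold change of -0.0035 and a 95% interval of -0.19 to 0.18 (adjusted p = 0.996). Larger changes in either direction lie outside the interval.

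Fat1, the most abundant of the FAT cadherin genes here and known for actin organisation at cell contacts and at the podocyte slit diaphragm, had the highest fold change of the 10. Its counts were 3039, 3455, 3651 and 4051 in controls and 3594, 3772, 3929 and 3956 in mutants. Mutants filled the upper part of the control range, and control 4 was the highest library of all. The log2 fold change was 0.11 (95% interval -0.048 to 0.27, adjusted p = 0.774). It passed the threshold in 1 setting chosen after seeing the data (log2 fold change 0.16, limma adjusted p = 0.0382). That fit had the level of long transcripts described below as a covariate and called 268 of the 13692 tested genes. In another such setting, without controls 1 and 2, the sign of Fat1 turned (-0.014, adjusted p = 0.966). These were its lowest controls, so its fold change had to fall. Fat1 is on chromosome 8 from 44935447 to 45052257, on the plus strand.

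Fat3, a FAT cadherin best known from neurons of the retina, had 743 to 977 normalised counts in controls and 676 to 938 in mutants (log2 fold change -0.050, 95% interval -0.29 to 0.19, adjusted p = 0.948). Mutant 1 was the lowest library, and without it the log2 fold change was 0.048 (adjusted p = 0.949), and without control 4 it was 0.012. For Fjx1, controls lay at 319.7 to 387 and mutants at 276 to 391, with mutants 3 and 4 below all controls and mutant 1 above them. Its log2 fold change was -0.094 (95% interval -0.34 to 0.16, adjusted p = 0.892). Fat3 is on chromosome 9 from 15910189 to 16501285 and Fjx1 on chromosome 2 from 102449366 to 102452499, both on the minus strand.

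Of the coactivator genes, Yap1 hardly differed and Wwtr1 was lower in 3 of 4 mutants than in any control, without passing the threshold. Yap1, on chromosome 9 from 7931999 to 8004596 on the minus strand, held 3698, 3661, 3801 and 3913 in controls and 3809, 3652, 3677 and 3735 in mutants. Its log2 fold change was -0.019 with a 95% interval of -0.088 to 0.050 (adjusted p = 0.926), the narrowest interval of the 10. Wwtr1, which encodes TAZ, lies on chromosome 3 from 57455649 to 57575910 on the minus strand. It held 1071, 1029, 1102 and 978 in controls and 916, 936, 931 and 979 in mutants. Only control 4 and mutant 4 met, at almost the same level, and the other libraries separated by genotype. The means were 1045 ± 53.7 and 941 ± 27.4 (n = 4 each), 90.03% of control, with a log2 fold change of -0.15 (95% interval -0.25 to -0.051, unadjusted p = 0.0068, limma adjusted p = 0.252). The adjusted p of Wwtr1 lay between 0.0736 and 0.690 in all settings tried.

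Tead2, the TEAD factor gene most linked to embryonic tissue, had 2867 to 3082 in controls and 2959 to 3113 in mutants (log2 fold change 0.029, 95% interval -0.047 to 0.10, adjusted p = 0.891). It is on chromosome 7 from 45215753 to 45233644, on the plus strand. The kinase gene Lats1 had 1379 to 1535 in controls and 1458 to 1591 in mutants (log2 fold change 0.045, 95% interval -0.050 to 0.14, adjusted p = 0.851). Lats2, the other LATS kinase gene and itself a known target of YAP, held 654, 666, 739 and 621 in controls and 606, 629, 518 and 615 in mutants. Mutant 2 reached just above control 4, and mutant 3 was the lowest library. The means of 670.1 ± 49.7 and 592 ± 50.7 (n = 4 each) gave 88.4% of control and a log2 fold change of -0.18 (95% interval -0.34 to -0.022, unadjusted p = 0.0290, adjusted p = 0.473). Lats1 is on chromosome 10 from 7681214 to 7716460 on the plus strand and Lats2 on chromosome 14 from 57689662 to 57758388 on the minus strand. In GENCODE vM21, 42.4% of the exon bases of Lats2 are shared with the overlapping gene Gm49361 on the same strand, so its value is uncertain to that extent. Exons of Fat4, Fat1, Dchs1, Yap1 and Tead2 overlap genes on the opposite strand, by at most 7.04% of exon bases for any 1 such gene, and a mark on the deposited table may stand for counting without strand. Reads of such overlapping genes could then not be told apart.

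**Figure D2:**
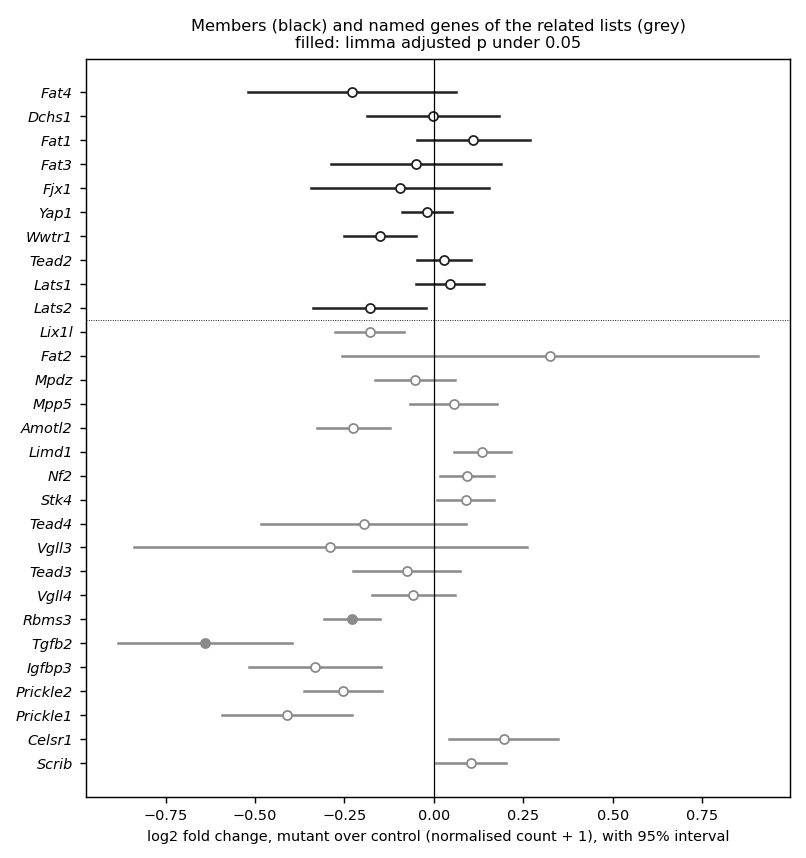
Log2 fold change of mutant over control (x axis) with its 95% interval for the 10 members (black, upper part) and the named genes of the related lists (grey, lower part). Filled circles mark limma adjusted p under 0.05, which only Rbms3 and Tgfb2 have, and the interval of every member but Wwtr1 and Lats2 spans 0.

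Per kilobase of exon, the levels of the 10 genes formed an order in which some neighbours overlapped. Tead2 was highest at 618 ± 22.2 normalised counts per kb in controls (SD, n = 4), followed by Yap1 at 407 ± 12.2, and the libraries of these 2 overlapped neither each other nor the next gene in either genotype. A middle tier held Fat1 at 227 ± 26.9, Wwtr1 at 219 ± 11.2, Dchs1 at 208 ± 17.4 and Lats1 at 202 ± 9.0, and control libraries of neighbours in it overlapped. Fat4 stood lower at 158 ± 29.9, then Fjx1 at 109 ± 9.8 and Lats2 at 96.1 ± 7.1, which overlapped each other, and Fat3 was lowest at 40.2 ± 5.3. In mutants Fat1 at 244 ± 10.6 lay above Wwtr1 at 197 ± 5.7 without overlap, and Fat4 at 134 ± 20.6 overlapped Fjx1 at 103 ± 18.1. These are levels over the merged exons of GENCODE vM21, which hold rarely used exons too, so the order depends on that annotation.

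**Figure D3:**
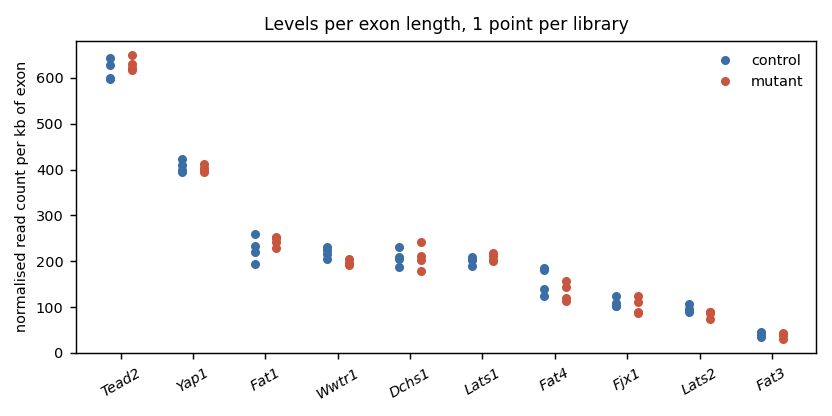
Normalised read count per kb of merged exon (y axis, from 0) of the 10 genes (x axis, in order of the control mean), with 1 point per control and mutant library. Tead2 and Yap1 stand apart at the top, near 618 and 407 in controls, and Fat3 at the bottom, near 40.2.

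Within a library the ratio of 2 genes does not depend on the library's scaling. The ratio of Fat4 to Fat1 per kb was 0.644, 0.636, 0.776 and 0.717 in controls and 0.495, 0.499, 0.576 and 0.624 in mutants, so all mutants lay below all controls. The pair was chosen after its values were seen, and 4.65% of tested genes had a ratio to Fat1 that was lower in all mutants. The ratio of Fat4 to Dchs1 was 0.664, 0.688, 0.864 and 0.805 in controls and 0.639, 0.596, 0.683 and 0.653 in mutants, where mutant 3 lay above control 1, so the genotypes overlapped, and 1.58% of tested genes had a ratio to Dchs1 that was lower in all mutants. The ratio of Yap1 to Wwtr1 was 1.87 ± 0.135 in controls and 2.04 ± 0.0758 in mutants (SD, n = 4 each). That of Lats1 to Lats2 was 1.98 to 2.29 in controls and 2.26 to 2.85 in mutants. Control 4 at 2.07 lay inside the mutant range of the former ratio, and at 2.29 inside that of the latter.

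Fat4, Dchs1 and Fat1 varied together from library to library. In both genotypes the 4 libraries stood in the same order for all 3 genes, with library 4 highest and library 1 lowest. These genes have long transcripts, with 17.2, 11.1 and 15.7 kb of exon. A long transcript score was therefore set beside them, the mean log2 deviation of the 1368 tested genes with at least 10 kb of exon, the members left out, minus that of 12184 shorter genes. It was -0.022, -0.014, 0.0097 and 0.048 in controls 1 to 4 and -0.026, -0.0090, -0.0014 and 0.014 in mutants 1 to 4, which is the same order again. The score was devised after this order had been seen, so its relation to these genes is a description with no test. Over the 8 libraries, which share their numbering and whose independence the labels do not state, Pearson's r with the score was 0.877 for Fat4, 0.836 for Dchs1 and 0.696 for Fat1. Without the 2 libraries of most extreme level it was 0.856, 0.928 and 0.608. Fat3, the member with the most exon at 21.5 kb, did not keep the shared order, as its highest mutant was mutant 2. Its r was 0.709 with Fat4 and 0.711 with Dchs1 over the 8 libraries, and r with the score was not computed for it.

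Between the cadherin genes themselves, r was 0.775 for Fat4 and Dchs1, 0.696 for Dchs1 and Fat1 and 0.498 for Fat4 and Fat1 over all 8 libraries. Without 2 libraries it was 0.909, 0.878 and 0.441. Within controls alone r for Fat4 and Fat1 was 0.926, and within mutants 0.939, each over 4 libraries. Within each genotype these pairs were all positive, from 0.886 to 0.992, as were the relations with the score, from 0.884 to 0.999. Some other measures followed the order of libraries 1 to 4, wholly or in part. Foxd1 stood at 1038, 1138, 1693 and 2039 in controls and 484, 469, 682 and 738 in mutants. The summed cortical stroma markers did not follow it in controls, at 37484, 39499, 38031 and 34206. In mutants they rose, at 27379, 29195, 30596 and 32904. The summed level of 9 ureteric bud markers ran the other way, at 8571, 7471, 6971 and 6315 in controls and 9533, 8708, 8148 and 6978 in mutants. Endothelial markers summed to 6423, 6185, 5753 and 5494 in controls and 6067, 5801, 4792 and 5523 in mutants. With the long transcript score as a covariate, Fat4 had a log2 fold change of -0.13 (limma adjusted p = 0.431) and Dchs1 one of 0.055 (adjusted p = 0.676). The part of stromal, ureteric or endothelial RNA in these values was not tested.

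**Figure D4:**
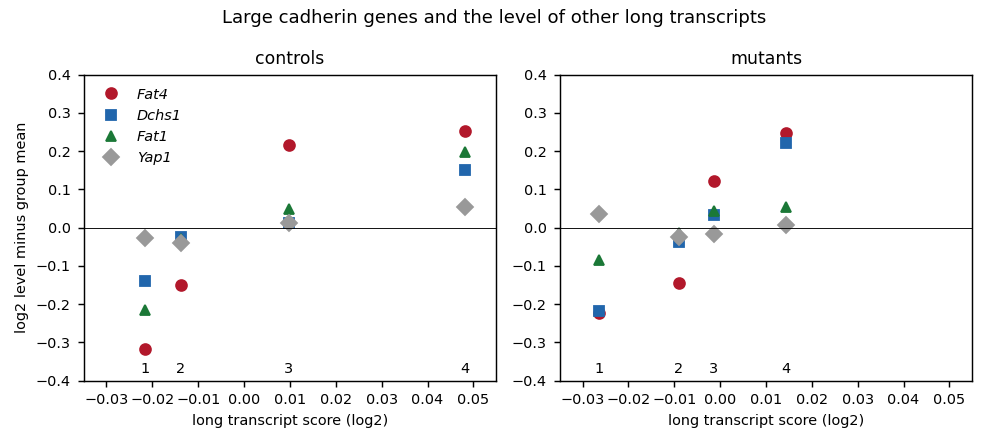
Log2 level minus the group mean (y axis) of Fat4, Dchs1, Fat1 and Yap1 against the long transcript score of each library (x axis, log2), in controls (left) and mutants (right), with the library number at the foot. The 3 cadherin genes go up with the score in both panels, Fat4 from lowest at 2146 to highest at 3184 normalised counts in controls, while Yap1 stays within 3652 and 3913 in all libraries.

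The genes most like Fat4 over the 8 libraries, by Pearson's r of log2 levels over the 11461 genes whose mean was 50 or more, were Nbea (0.970), Slc7a7 (0.956), Fbn2 (0.955), Nsg1 (0.950) and Ttbk2 (0.950). Nbea encodes the scaffold protein neurobeachin, with 31.4 kb of exon, and Fbn2 encodes fibrillin 2, a matrix microfibril protein, with 13.2 kb. Ttbk2 has 11.4 kb of exon, and Slc7a7 and Nsg1 have 3.3 and 3.2 kb. For Dchs1 they were Map4k4 (0.988), Mbd6 (0.960), Flna (0.957), Arid3a (0.957) and Sulf2 (0.952). These have 9.6, 4.5, 9.4, 5.6 and 5.9 kb of exon, all under the 10 kb set for the long transcript score. Map4k4, a kinase that can activate LATS, is also in the list of Hippo kinases below, and Flna encodes the actin crosslinker filamin A. None of these 10 passed the threshold between genotypes, with adjusted p of at least 0.549. Values of r are descriptions over shared libraries.

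No gene of the wider Hippo pathway list passed the threshold by limma. Of 22 tested kinases, adaptors and junctional regulators, 0 were called by limma or edgeR and 1 by DESeq2, 5 had an unadjusted p under 0.05, and the median log2 fold change was 0.0020. Over all tested genes the shares were 0.57% by limma, 0.577% by edgeR, 1.56% by DESeq2 and 8.7% for an unadjusted p. Amotl2, which encodes an angiomotin that binds YAP, was the one called by DESeq2. It held 775, 775, 842 and 844 in controls and 715, 677, 675 and 699 in mutants, with no overlap (log2 fold change -0.22, limma adjusted p = 0.0659, DESeq2 adjusted p = 0.0220). For Amotl2 the authors' deposited adjusted p was 0.181. Limd1, a LIM protein that restrains LATS, went the other way at 1085 to 1148 in controls and 1209.8 to 1277 in mutants (log2 fold change 0.14, adjusted p = 0.171). Nf2, the gene of the upstream regulator merlin, differed by 0.093 on the log2 scale (adjusted p = 0.421) and Stk4, the MST1 kinase gene, by 0.089 (adjusted p = 0.481). In all, 4 of the 22 separated the genotypes without overlap, 1 lower and 3 higher, against 3.0% of all tested genes lower and 2.31% higher.

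Of 5 tested TEAD and VGLL genes, 0 were called by limma, edgeR or DESeq2, 0 had an unadjusted p under 0.05, and all 5 had negative fold changes with a median of -0.076. They ranged from -0.29 for Vgll3, a TEAD cofactor gene (adjusted p = 0.827), and -0.20 for Tead4 (adjusted p = 0.778), through -0.076 for Tead3 and -0.058 for Vgll4, to -0.028 for Tead1. Vgll1 and Vgll2 were in the table with a mean under 10. Of 6 symbols for relatives and partners of Fat and Dchs proteins, 5 were tested and 0 were called by limma, edgeR or DESeq2, with 1 at an unadjusted p under 0.05. That one was Lix1l, a relative of the fly gene lowfat, whose product binds Fat and Dachsous. It held 929, 998, 954 and 895 in controls and 837, 799.8, 851 and 844 in mutants, without overlap (log2 fold change -0.18, limma adjusted p = 0.129). Fat2, at 12.8 to 30.6 in all libraries, was low (log2 fold change 0.33, adjusted p = 0.820). Mpdz and Mpp5, which encode scaffold proteins, had log2 fold changes of -0.053 and 0.055 (adjusted p = 0.853 and 0.861).

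Among known target genes of YAP and TAZ, 2 fell. Of 19 tested, 2 were called lower, where 0.446% of all tested genes were, and 0 higher, where 0.124% were. By edgeR 2 were called and by DESeq2 4, and 7 had an unadjusted p under 0.05, against 0.577%, 1.56% and 8.7% of all tested genes. Fold changes were negative for 15, and the median log2 fold change was -0.18 beside 0.0037 for all tested genes. Tgfb2, a TGF-beta ligand gene, fell. Its counts were 675, 801, 712 and 734 in controls and 380.1, 462, 457 and 595 in mutants, every mutant below every control (log2 fold change -0.64, SE 0.111, limma adjusted p = 0.0325). Rbms3, an RNA-binding protein gene, fell too, from 1665, 1715, 1723 and 1674 to 1487, 1379, 1434 and 1483 (log2 fold change -0.23, SE 0.036, adjusted p = 0.0204). Igfbp3, which binds insulin-like growth factors, was at 1192, 1116, 1087 and 1222 in controls and 758, 993, 911 and 1026 in mutants, without overlap (log2 fold change -0.33, limma adjusted p = 0.137, DESeq2 adjusted p = 0.0165). For Igfbp3 the authors' deposited adjusted p was 0.0569. With Amotl2, which is also on this list, 4 of 19 lay lower in all mutants, against 3.0% of all tested genes. Ctgf and Cyr61, the targets most often used as readouts, had log2 fold changes of -0.20 each (adjusted p = 0.783 and 0.801), and Ankrd1, at no more than 6.2 in any library, was below the filter. An antisense gene overlaps 23.2% of the exon bases of Ctgf. Lats2 and Fjx1 are on this list as well. Many of these genes are also expressed in mesenchyme, and 9 of 10 cortical stroma markers had negative fold changes in the same libraries, with the summed levels given above. The part of stromal RNA in these values was not tested.

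Neither call held in every fit that left out 1 library. The call of Tgfb2 was lost when control 1 was left out (limma adjusted p = 0.0509), and likewise for control 2 (0.104), control 3 (0.115), mutant 1 (0.0687), mutant 2 (0.103) or mutant 3 (0.120), and that of Rbms3 without control 2 (0.0674), control 3 (0.0880), mutant 2 (0.0686) or mutant 3 (0.0902). Fold changes stayed between -0.76 and -0.54 for Tgfb2 and between -0.24 and -0.21 for Rbms3 in all 8 fits without 1 library. Over all tested genes these fits called 18 to 185 genes, against 78 with all libraries. With control 2 and mutant 2 left out, where muscle markers were highest, adjusted p was 0.262 for Tgfb2 and 0.204 for Rbms3, with log2 fold changes of -0.59 and -0.20. Over all 8 libraries DESeq2 gave an adjusted p of 1.43e-05 for Tgfb2 and 0.000112 for Rbms3. The authors' deposited adjusted p was 0.000317 for Tgfb2 and 0.0309 for Rbms3.

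**Figure D5:**
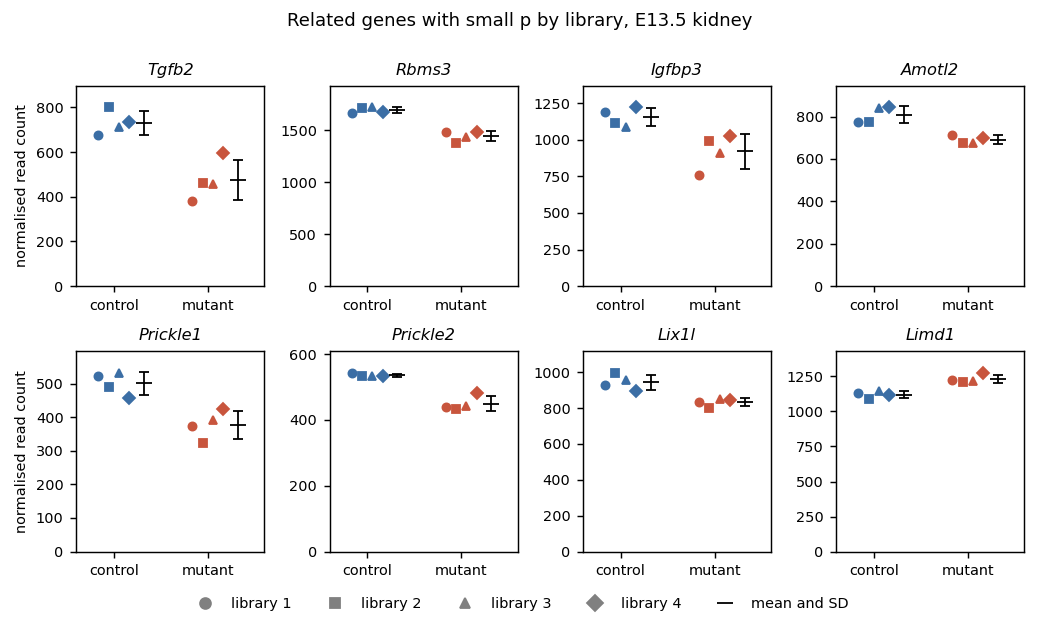
Normalised read counts (y axis, from 0) in each control and mutant library (x axis) of 8 genes of the related lists, chosen for small p, with 1 symbol per library and the mean and SD of each group in black. In each panel the 4 mutants lie on 1 side of the 4 controls, higher only for Limd1 (1209.8 to 1277 against 1085 to 1148).

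Planar cell polarity, the alignment of cells within a sheet, is another process in which Fat4 acts during tubule elongation. Of 14 tested core genes, 0 were called by limma, 1 by edgeR and 2 by DESeq2, and 4 had an unadjusted p under 0.05, beside 0.57%, 0.577%, 1.56% and 8.7% of all tested genes. Those called by DESeq2 were Prickle1 and Prickle2, which encode cytoplasmic LIM proteins that work with Vangl2. Prickle1 held 522, 491, 533 and 458 in controls and 373, 323, 392 and 423 in mutants (log2 fold change -0.41, limma adjusted p = 0.0615, DESeq2 adjusted p = 0.00241). For Prickle1 the authors' deposited table has an adjusted p of 0.00197. Prickle2 held 544, 532, 532 and 532 in controls and 439, 432, 441 and 482 in mutants (log2 fold change -0.25, limma adjusted p = 0.0521, edgeR adjusted p = 0.04995, DESeq2 adjusted p = 0.0260). In the authors' deposited table its adjusted p was 0.193. Neither overlapped between genotypes, so 2 of 14 lay lower in all mutants, against 3.0% of all tested genes, and no other gene of the list separated. Celsr1, an atypical cadherin gene, and Scrib, an epithelial polarity gene, had log2 fold changes of 0.19 (limma adjusted p = 0.384) and 0.10 (adjusted p = 0.520). Prickle1 passed by limma without control 4 (adjusted p = 0.0282) or mutant 4 (0.0299), and Prickle2 without mutant 4 (0.0253).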

How the data were processed

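Poly(A)-selected RNA of E13.5 kidneys was sequenced after an Illumina TruSeq preparation, per the labels' protocols. The submitters' processing notes name mm10 (GRCm38), TopHat2 2.0.12, HTSeq and DESeq2 1.4.5. The annotation used for counting was not given in the sources used here. The authors deposited per-library signal values, gene counts divided by 1 size factor per library, per the file headers. The authors also deposited group means, the fold (ratio) between them, log2 of that fold and p-values. Every value was a whole multiple of the value of 1 read (100.0% within 0.01 read), so whole reads were recovered.

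Values were tested as log2(value + 1) with limma 3.58.1 (R 4.3.3, trended prior variance), for the 13692 genes with a mean of at least 10, with genotype as the only term, two-sided, with Benjamini-Hochberg adjustment at 0.05. On recovered reads, DESeq2 1.42.0 and the quasi-likelihood test of edgeR 4.0.16 were alternatives, as were the pseudocount, filter, scaling, sample number as a block and leaving out libraries. The members, lists and tests were chosen with earlier results of these data known. Named genes were all members, called genes and up to 4 of smallest p in each related list, and the 5 genes most like Fat4 and Dchs1. Ctgf, Cyr61, Ankrd1, Tead1, Vgll1 and Vgll2 were named outside this rule, after their values were seen. Positions and exon lengths came from GENCODE vM21, matched by symbol for 98.0% of genes, and promoters from RefSeq GRCm38.p6. No library was a repeat of another: chi-square over its degrees of freedom was 2.89 to 10.98 for same-genotype pairs, where noise alone gives about 1. The steps were tested on simulated data. Figures used matplotlib 3.10.9.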

Additional observations from a re-analysis of the deposited data

Results flagged for a closer look

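A gap test asked of each gene and genotype whether 1 of the 4 libraries lay apart. It was run 58 times and marked 2 cases, against about 2.9 by chance. Stk4 was 1157 in mutant 3 against 1112 to 1116 in the other mutants. Prickle2 was 543.5 in control 1 against 531.9 to 532.4 in the other controls. Neither gene was called between the genotypes by limma, and none of the 10 members was marked.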

How the results depend on the processing

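Pseudocounts of 0.5 and 5, no filter, TMM scaling and median centring turned no fold change of the 29 genes refitted (the members and the genes named by rule from the related lists) and called 0 of the 10 members. The same held with a minimum mean of 50 for 28 of them, as Fat2 was below it. Of the planar polarity genes, 1 was called with a minimum mean of 50, 1 with TMM scaling and 1 by edgeR (Prickle2). DESeq2 called 1 Hippo kinase or adaptor gene, 4 YAP and TAZ targets, 2 planar polarity genes and 214 genes in all, against 78.

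The sample numbers are not stated to mark litters or pairs. Deviations from the group means correlated over tested genes at 0.325, 0.287, 0.294 and 0.0635 between controls and mutants numbered 1 to 4, and every control but control 4 correlated best with the mutant of its own number, while mutant 4 correlated best with control 3. With the sample number as a replicate block, 232 genes were called (1.69% of all tested genes), all 78 among them. They held 1 member, Fat4 (log2 fold change -0.23, limma adjusted p = 0.0133), with 1 Hippo kinase or adaptor gene, 5 YAP and TAZ targets and 2 planar polarity genes. By edgeR with the replicate block 221 of the 13692 tested genes were called, with 1 member (Fat4, adjusted p = 0.0103), 1 Hippo kinase or adaptor gene, 5 targets and 1 planar polarity gene. Without the block the adjusted p of Fat4 lay between 0.179 and 1.00 in every other setting.

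Leaving out 1 library gave 18 to 185 calls over all genes, 0 to 3 YAP and TAZ targets, 0 to 2 planar polarity genes and 0 members. Fold changes turned sign in such fits only for genes near 0, Fat3 (-0.12 to 0.048) and Dchs1 (-0.077 to 0.069).

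Other settings were chosen after seeing the data. Without the libraries numbered 2, 2 genes were called, 0 of them YAP and TAZ targets, and Dchs1 was at 0.00078 and Lats1 at -0.0081. Without controls 1 and 2, 29 genes and 0 targets were called, and Fat1 stood at -0.0136 and Tead2 at -0.0140. Without control 4 and mutant 2, 146 genes and 1 planar polarity gene were called, with Dchs1 at 0.059 and Yap1 at 0.0079. With the long transcript score as covariate 268 genes were called, with 1 member (Fat1), 1 Fat and Dchs partner (Lix1l), 1 Hippo kinase or adaptor gene, 4 targets and 2 planar polarity genes, and Fat3 and Dchs1 stood at 0.018 and 0.055. The causes of these differences were not tested.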
